A study of Mus musculus with 9 samples.

Results

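Integrins are surface receptors made of 1 alpha and 1 beta chain, and 10 mouse chains were followed here across CD4+ T cells: Itga1, Itga2, Itga4, Itgae, Itgal, Itgav, Itgb1, Itgb2, Itgb3 and Itgb7. The chains were listed by name and found on the arrays as every non-control probe whose RefSeq transcript accession belongs to them. By that match 9 of the 10 chains had 15 of the 39429 probes. Itgae, the alpha chain that pairs with beta 7 to bind E-cadherin, had no matched probe and is not analysed here. The match depends on the RefSeq accessions at hand, so the arrays may still carry a probe for Itgae. A probe was tested if at least 3 of the 9 arrays showed it well above background, which kept 13 probes of 8 chains among 19063 genes. Both Itga1 probes fell below that limit.

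The arrays held RNA of CD4+ T cells taken from BALB/c mice (spleen and lymph node), with 3 arrays for each of 3 sorted populations. Th17 cells were CD3+ CD4+ and CD45RB low with IL-17A and no interferon gamma captured on their surface, Th1 cells were CD3+ CD4+ and CD45RB low with interferon gamma and no IL-17A, and naive cells were CD3+ CD4+ and CD45RB high. Every population, naive cells included, had received PMA (10 ng/ml) and ionomycin (500 ng/ml) for 3 h before the sort, so no resting cells are among the samples, and CD45RB differs between both effector populations and naive cells as well as the captured cytokine. The labels give neither age nor sex of the mice, nor which animals, pools or sorts lie behind a replicate, so the p-values describe the spread among these arrays alone, and that spread could be technical.

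Integrins let T cells stop on vessel walls, enter tissue and hold on to other cells. An alpha chain can have several partners and the pair decides the ligand. Alpha 4 with beta 1 binds VCAM-1 and fibronectin, alpha 4 with beta 7 binds the gut vessel addressin MAdCAM-1, and alpha L with beta 2 is LFA-1, the receptor of the ICAMs. Alpha V with beta 8 releases active TGF-beta from its latent form and alpha V with beta 3 binds vitronectin, while alpha 1 and alpha 2 with beta 1 bind collagens and laminins. In the bulk RNA of a sorted population, fewer cells with a transcript and less transcript per cell cannot be told apart.

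Levels are log2 of the processed intensity minus the 75th percentile of the same array, and changes are differences of these levels with their standard error from limma. Levels of different chains come from different probes and are not set against each other. Arrays carried 53.4% to 58.3% of their probes well above background, and their number limits the precision. The sorted cytokines followed the gates, with Il17a at 9.32 ± 0.25 in Th17, -0.68 ± 1.48 in Th1 and -2.94 ± 2.43 in naive cells and Ifng at 1.80 ± 0.47, 9.21 ± 0.17 and 1.51 ± 0.16 in the same populations (SD, n = 3 each). All 5 CD4 T cell markers with a probe were above background on every array. Th17 replicates 1 and 2 shared slide 2 with Th1 replicates 2 and 3, Th17 replicate 3 was alone on slide 3, and the 3 naive arrays shared slide 1 with Th1 replicate 1. No slide held Th17 and naive cells together. A fit with slide as a block therefore sets effector against naive cells through Th1 replicate 1 alone.

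In Th17 cells 8 of the 8 tested chains differed from naive cells at a limma adjusted p under 0.05 (Benjamini-Hochberg over all 19063 genes), 6 higher and 2 lower. 1 of the higher calls is Itga2, which was above background on no naive array and had no bound in Th17 cells, and which passed the filter through effector arrays alone. Without it 7 of 7 chains were called, 5 higher and 2 lower. That threshold was passed by 54.4% of all genes in this comparison, 23.9% higher and 30.5% lower, so a call by itself is common here. In Th1 cells 6 of the 8 chains differed from naive cells, 5 higher, Itga2 among them, and 1 lower, where 54.1% of all genes passed, 23.2% higher and 30.9% lower. Between Th17 and Th1 cells 3 of the 8 passed, Itgb3 higher and Itga4 and Itgb1 lower in Th17 cells, where 15.8% of all genes passed, 8.1% higher and 7.71% lower. The median change of the 8 chains was 1.08 in Th17 and 0.57 in Th1 cells against naive cells (0.67 and 0.56 without Itga2), beside -0.10 and -0.10 over all genes, and -0.07 between Th17 and Th1 cells beside 0.01. The 2 comparisons against naive cells share the naive arrays.

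**Figure D1:**
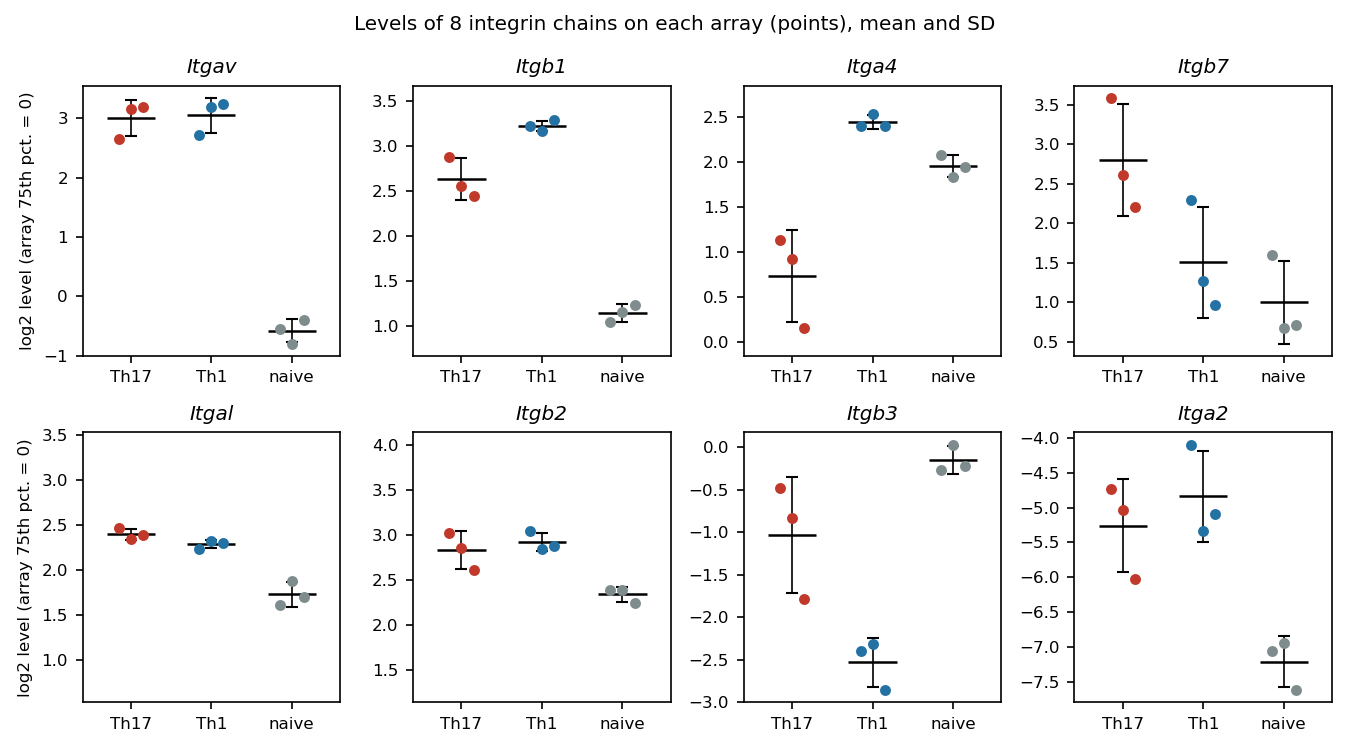
Log2 level (array 75th percentile set to 0) of the brightest kept probe of 8 integrin chains on each array, with Th17, Th1 and naive cells from left to right in every panel; points are arrays, long bars means and error bars SD (n = 3). Itgav lies between 2.66 and 3.24 on every Th17 and Th1 array and at or below -0.40 on the naive arrays, while Itga4 is lowest in Th17 cells. The vertical axes differ between panels.

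The widest change was that of Itgav, the alpha V chain, which on its brighter probe stood at 2.66, 3.16 and 3.19 on the Th17 arrays, 2.72, 3.19 and 3.24 on the Th1 arrays and -0.55, -0.80 and -0.40 on the naive arrays. Both effector populations lay far above naive cells and overlapped with each other. The change was 3.59 ± 0.20 in Th17 cells (limma adjusted p = 3.86e-06) and 3.63 ± 0.20 in Th1 cells (12.4-fold, limma adjusted p = 3.66e-06), each against naive cells. The difference between Th17 and Th1 cells was -0.05 with a 95% confidence interval of -0.50 to 0.41 (limma adjusted p = 0.899). The second probe gave 3.15 and 3.37 for Th17 and Th1 against naive cells.

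Itgb1, the beta 1 chain, which pairs with the most alpha chains, was highest in Th1 cells. Its level was 2.88, 2.55 and 2.44 on the Th17 arrays, 3.22, 3.17 and 3.29 on the Th1 arrays and 1.04, 1.15 and 1.23 on the naive arrays. The 3 populations did not overlap, in the order Th1, Th17, naive. Against naive cells Itgb1 rose by 1.48 ± 0.13 in Th17 (2.80-fold, limma adjusted p = 3.48e-05) and by 2.08 ± 0.13 in Th1 cells (4.23-fold, limma adjusted p = 6.34e-06). In Th17 cells it was 1.51-fold lower than in Th1 cells (-0.60 ± 0.13, limma adjusted p = 0.0157). That difference between Th17 and Th1 cells was not called on the dimmer probe (-0.53, adjusted p = 0.103), with slide as a block (-0.51, adjusted p = 0.0791), within slide 2 (-0.51, adjusted p = 0.157), or without Th1 replicate 3 or Th17 replicate 2 (adjusted p = 0.0537 and 0.0519).

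The promoters of these chains are shown because Itgav and Itgb1 were the chains most raised in Th1 cells among those well above background on every array. Each is the 250 bases before the RefSeq transcript start in build GRCm38.p6, 5′ to 3′ on the strand of the gene, Itgav at chr2:83724147-83724396 (plus strand) and Itgb1 at chr8:128685404-128685653 (plus strand). Capitals mark letters searched for on both strands: TGTGGT (RUNX), CCGGAA (ETS), GGGCGG (GC box), TGANTCA (AP-1) and TGGAAA (NFAT).
Itgav: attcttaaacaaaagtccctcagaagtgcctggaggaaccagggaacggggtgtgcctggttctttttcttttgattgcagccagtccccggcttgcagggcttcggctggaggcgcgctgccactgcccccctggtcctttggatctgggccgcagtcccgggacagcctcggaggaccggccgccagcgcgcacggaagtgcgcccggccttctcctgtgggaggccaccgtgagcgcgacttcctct
Itgb1: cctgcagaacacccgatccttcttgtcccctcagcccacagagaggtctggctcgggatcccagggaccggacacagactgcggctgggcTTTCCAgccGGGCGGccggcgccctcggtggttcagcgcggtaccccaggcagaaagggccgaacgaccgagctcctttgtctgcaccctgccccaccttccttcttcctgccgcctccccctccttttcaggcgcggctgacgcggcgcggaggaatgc
The Itgav window held none of these words. The Itgb1 window held 1 NFAT word and 1 GC box, found in 18.6% and 32.7% of 32851 RefSeq promoter windows of the same length. A match is a description of the letters and not a binding site.

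Itga4, the alpha 4 chain, was lowest in Th17 cells. Its level was 1.13, 0.92 and 0.15 on the Th17 arrays, 2.39, 2.53 and 2.39 on the Th1 arrays and 2.07, 1.83 and 1.94 on the naive arrays. On this brighter probe every Th17 array lay below every naive array, and every Th1 array above. In Th17 cells Itga4 was 2.32-fold lower than in naive cells (-1.22 ± 0.23, limma adjusted p = 0.00222) and 3.26-fold lower than in Th1 cells (-1.71 ± 0.23, limma adjusted p = 0.00174). In Th1 cells it was at 0.49 ± 0.23 against naive cells, which missed the threshold (limma adjusted p = 0.101). The lowest value is that of Th17 replicate 3, alone on its slide. Without that array the Th17 changes were -0.93 against naive and -1.42 against Th1 cells, both still called, and the Th1 change of 0.49 was called (limma adjusted p = 0.00562), as it was over the 6 Th1 and naive arrays alone (adjusted p = 0.00771). Within slide 2 the change between Th17 and Th1 cells was -1.44 (adjusted p = 0.0138). The dimmer Itga4 probe gave -0.96, 0.38 and -1.34 for Th17 against naive, Th1 against naive and Th17 against Th1. On it the Th17 arrays again lay below the naive arrays, but the Th1 arrays overlapped with them (limma adjusted p = 0.229).

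Itgb7, the beta 7 chain, was highest in Th17 cells, at 3.58, 2.61 and 2.21 on their arrays, 2.30, 1.27 and 0.97 on the Th1 arrays and 1.60, 0.68 and 0.71 on the naive arrays. Th17 cells lay above naive cells without overlap but overlapped with Th1 cells, which overlapped with naive cells. Replicate 1 was the highest array of each population, by 0.89 to 1.04 over the next. The change was 1.80 ± 0.46 in Th17 against naive cells (3.48-fold, limma adjusted p = 0.0103), 0.51 ± 0.46 in Th1 against naive cells (adjusted p = 0.376, 95% confidence interval -0.54 to 1.57) and 1.29 ± 0.46 between Th17 and Th1 cells (adjusted p = 0.0983, interval 0.23 to 2.34). The Th17 to Th1 difference was called with slide as a block (1.98, adjusted p = 0.0351) and without Th1 replicate 1 (1.68, adjusted p = 0.0497), and was at 1.98 within slide 2 (adjusted p = 0.0534). With slide as a block the change against naive cells was 3.28 in Th17 and 1.31 in Th1 cells. Both values rest on Th1 replicate 1, the highest Th1 array and the only effector array on a slide with naive cells. Alpha 4 and beta 7 form a pair, so in Th17 cells against naive cells 1 chain of the pair was lower and the other higher.

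The promoters of the chains of this pair are shown because the chains moved in opposite directions in Th17 cells, with the same marking as above. The Itga4 window is at chr2:79255176-79255425 (plus strand) and the Itgb7 window at chr15:102231936-102232185 (minus strand), both in GRCm38.p6.
Itga4: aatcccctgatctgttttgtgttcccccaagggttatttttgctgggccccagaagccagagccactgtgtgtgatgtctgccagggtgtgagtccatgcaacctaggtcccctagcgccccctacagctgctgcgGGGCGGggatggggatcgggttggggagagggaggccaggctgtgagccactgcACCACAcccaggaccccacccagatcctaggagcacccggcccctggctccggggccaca
Itgb7: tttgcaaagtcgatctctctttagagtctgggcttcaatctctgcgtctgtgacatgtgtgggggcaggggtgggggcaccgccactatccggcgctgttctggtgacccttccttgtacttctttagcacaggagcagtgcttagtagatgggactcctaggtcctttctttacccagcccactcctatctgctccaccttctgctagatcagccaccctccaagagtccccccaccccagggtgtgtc
The Itga4 window held 1 RUNX word, read here on the opposite strand as ACCACA, 60 bases before the start, and 1 GC box, while the Itgb7 window held none of the words. RUNX words occurred in 14.0% of the promoter windows.

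The chains of LFA-1 rose together and by little. Itgal, the alpha L chain, stood at 2.47, 2.35 and 2.39 on the Th17 arrays, 2.24, 2.32 and 2.30 on the Th1 arrays and 1.61, 1.88 and 1.70 on the naive arrays. It rose by 0.67 ± 0.10 in Th17 (1.59-fold, limma adjusted p = 0.000599) and by 0.56 ± 0.10 in Th1 cells (1.47-fold, limma adjusted p = 0.00168), each against naive cells, and its second probe gave 0.68 and 0.59. Itgb2, the beta 2 chain shared by the leukocyte integrins, stood at 3.02, 2.86 and 2.61 on the Th17 arrays, 3.04, 2.85 and 2.88 on the Th1 arrays and 2.39, 2.39 and 2.24 on the naive arrays. It rose by 0.49 ± 0.12 in Th17 (limma adjusted p = 0.0097) and by 0.59 ± 0.12 in Th1 cells (limma adjusted p = 0.0042). For both chains of LFA-1 every Th17 and Th1 array lay above every naive array, and the Th17 arrays lay above the Th1 arrays for Itgal but overlapped with them for Itgb2. Neither was called between Th17 and Th1 cells, with intervals of -0.11 to 0.34 for Itgal and -0.38 to 0.19 for Itgb2. With slide as a block Itgal was not called in Th17 against naive cells (0.60, adjusted p = 0.0599). Within slide 1, where Th1 replicate 1 is the only Th1 array, its change in Th1 against naive cells was 0.51.

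Itgb3, the beta 3 chain that joins alpha V in the vitronectin receptor and alpha IIb on platelets, ran against Itgav. Its brighter probe stood at -0.48, -0.83 and -1.79 on the Th17 arrays, -2.40, -2.32 and -2.86 on the Th1 arrays and -0.27, 0.03 and -0.22 on the naive arrays. The populations did not overlap, with naive cells highest and Th1 cells lowest. In Th1 cells Itgb3 was 5.19-fold lower than in naive cells (-2.38 ± 0.31, limma adjusted p = 0.000374). In Th17 cells it was 2.82-fold higher than in Th1 cells (1.49 ± 0.31, limma adjusted p = 0.0143), a call lost without Th1 replicate 3 (1.33, adjusted p = 0.0521) and kept within slide 2 (1.94, adjusted p = 0.0232). The change of -0.88 ± 0.31 in Th17 against naive cells (limma adjusted p = 0.0415) was close to the threshold. It was not called on the dimmer probe (-0.08, adjusted p = 0.782), with slide as a block (-0.31, adjusted p = 0.538) or in 7 of the 9 fits that left out 1 array, and it was -0.50 without Th17 replicate 3. The dimmer probe was above background on none of the Th1 arrays, and by it Itgb3 was at least 2.07-fold lower in Th1 than in naive cells (limma adjusted p = 0.0019) and at least 1.96-fold higher in Th17 than in Th1 cells (limma adjusted p = 0.01). Of 6 platelet markers 3 in Th17, 3 in Th1 and 4 in naive cells were above background on no array. Their summed level (linear, 1 at the 75th percentile) was 0.0934 to 0.224 in Th17, 0.097 to 0.438 in Th1 and 0.105 to 0.128 in naive cells, and its part in the Itgb3 values was not tested.

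**Figure D2:**
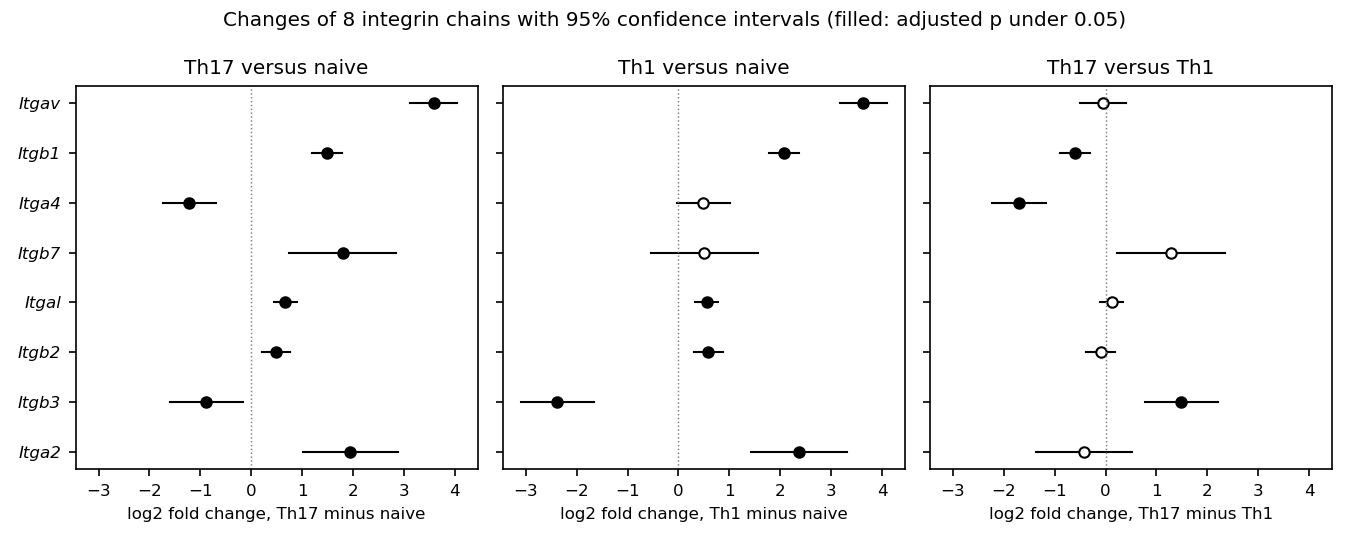
Log2 fold changes of 8 integrin chains with 95% confidence intervals from limma in Th17 against naive, Th1 against naive and Th17 against Th1 cells (filled points: adjusted p under 0.05). Itgav is near 3.6 in both effector populations against naive cells and near 0 between them, while Itga4, Itgb1 and Itgb3 differ between Th17 and Th1 cells. The Itga2 values against naive cells rest on a signal at background on the naive arrays.

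The collagen-binding alpha chains were at the edge of detection. Itga2, the alpha 2 chain, was at -4.74, -5.03 and -6.02 on the Th17 arrays, -4.10, -5.33 and -5.09 on the Th1 arrays and -7.06, -6.95 and -7.62 on the naive arrays. It was well above background on 2 Th17, 2 Th1 and 0 naive arrays, so its calls against naive cells (limma adjusted p = 0.00405 for Th17 and 0.00152 for Th1) set a weak signal against none. Set against the lowest signal among probes well above background, Itga2 was at least 1.16-fold higher in Th1 than in naive cells, and no bound could be given for Th17 cells. All 5 NK cell markers, a lineage known for alpha 2 in the mouse, had probes, and 4 of them in Th17, 4 in Th1 and 3 in naive cells were above background on no array. Eomes was above background on 1 Th17, 3 Th1 and 3 naive arrays. The summed level of the 5 markers was 0.0308 to 0.0791 in Th17, 0.271 to 0.56 in Th1 and 0.693 to 1.07 in naive cells. Eomes, at -2.10 to -0.93 in Th1 and -0.60 to 0.01 in naive cells, made up most of the sum in these 2 populations. Ncr1, Klrb1c and Klre1 were above background on no array of any population. The part of these markers in the Itga2 values was not tested. The brighter Itga1 probe, for the alpha 1 chain, was above background on 1 Th17, 1 Th1 and 0 naive arrays. It stood at -5.87, -5.33 and -2.00 on the Th17 arrays, -4.75, -5.03 and -4.86 on the Th1 arrays and -5.37, -5.17 and -5.14 on the naive arrays, so that Th17 replicate 3 stood apart.

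5 chains had 2 kept probes, and the pairs pointed the same way in every comparison.

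**Figure D3:**
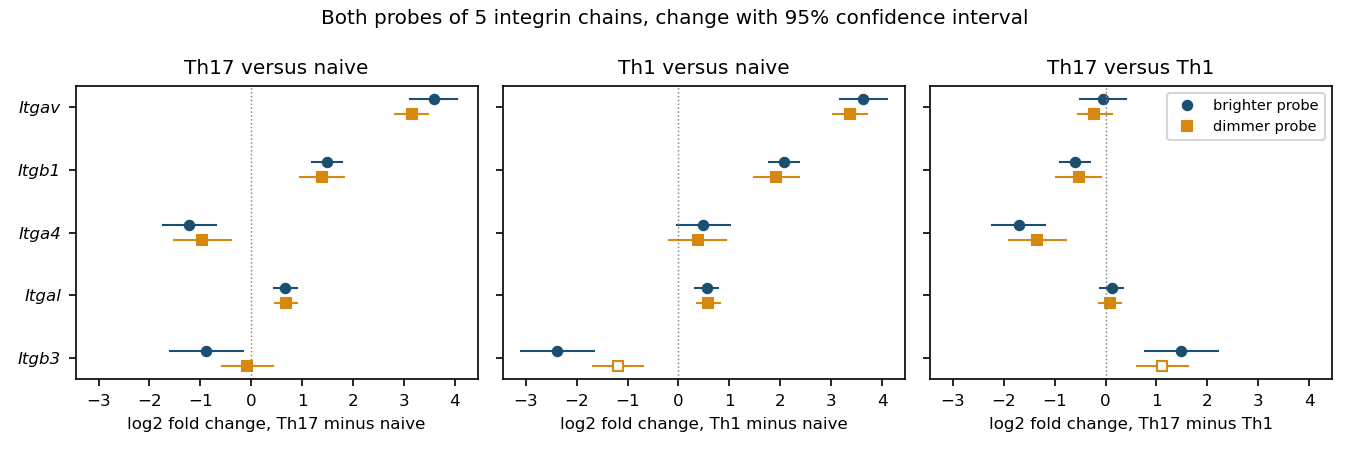
Log2 fold changes with 95% confidence intervals for the brighter (circles) and dimmer (squares) kept probe of 5 integrin chains in Th17 against naive, Th1 against naive and Th17 against Th1 cells. The intervals of both probes overlap for all 5 chains, though barely for Itgb3 in Th1 against naive cells (-3.09 to -1.66 and -1.68 to -0.70). Open squares mark the dimmer Itgb3 probe where it was above background on no Th1 array, so that its plotted value rests on a signal at background; in Th17 against naive cells, where both Itgb3 probes were measured, they lie at -0.88 and -0.08.

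Among 4305 genes whose population means spanned at least 1 log2 unit, the 2 with the highest Pearson r over the 9 arrays were found for each of the 6 chains with a called change of at least 1 log2 unit, which leaves out Itgal and Itgb2, as a description of arrays that share their populations and slides. For Itgav these were Gm11110 (r = 0.9963) and Nlrp1a (r = 0.996), with 456 genes over 0.95, and for Itgb1 they were Treml4 (r = 0.9921) and Sh3bgrl (r = 0.9901), with 245 genes over 0.95. Itgb3 was closest to AA467197 (r = 0.9841) and Tent5a (r = 0.9771), and Itga2 to Dus2 (r = 0.984) and Abcb4 (r = 0.9742). Since Itga2 was above background on 2 Th17, 2 Th1 and 0 naive arrays, its likenesses rest largely on signal at background. Itga4 was closest to Gm8909 (r = 0.964) and Tnfsf4 (r = 0.9599), the gene of OX40 ligand. Itgb7 was closest to Atp2a3 (r = 0.9764), the calcium pump SERCA3, and Sirt2 (r = 0.9528), the only genes over 0.95 for it. Itga4, Itga2 and Itgb3 had 7, 20 and 28 genes over 0.95, so few likenesses were not particular to Itgb7.

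The other 17 chains of the family were set beside these, of which 8 were tested. Against naive cells 3 rose and 2 fell in Th17 cells (62.5% called, beside 54.4% of all genes), and 2 rose and 4 fell in Th1 cells (75% beside 54.1%). Between Th17 and Th1 cells 2 were higher and 1 was lower (37.5% beside 15.8%). Itgb8, the partner with which alpha V activates TGF-beta, stood at -3.59, -3.51 and -3.58 on the Th17 arrays, -1.71, -1.29 and -1.34 on the Th1 arrays and -7.14, -7.05 and -7.70 on the naive arrays, above background on no naive array. It was at least 2.82-fold higher in Th17 cells (limma adjusted p = 2.51e-06) and at least 12.2-fold higher in Th1 cells (limma adjusted p = 2.62e-07) than in naive cells. In Th17 cells it was 4.33-fold lower than in Th1 cells (-2.11 ± 0.19, limma adjusted p = 2e-04), where Itgav overlapped. Of the regulatory T cell markers, Foxp3 was at 0.55 to 0.91 in Th17, 1.11 to 2.0 in Th1 and -2.45 to -2.39 in naive cells, and Ikzf2 at 1.37 to 2.05 in Th17, 3.67 to 4.19 in Th1 and -5.27 to -4.38 in naive cells. Both ran in the order of Itgb8, with Th1 cells highest. Il2ra, at 6.95 to 7.21 in Th17, 5.96 to 6.61 in Th1 and 5.63 to 5.83 in naive cells, was highest in Th17 cells and made up most of the summed level of the 3 markers, which was 128 to 152 in Th17, 77.6 to 115 in Th1 and 49.9 to 57 in naive cells. The part of these markers in the Itgb8 and Itgav values was not tested.

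Itga6, an alpha chain of laminin receptors, fell in both effector populations, by 2.66 ± 0.14 in Th17 (6.32-fold, limma adjusted p = 3.52e-06) and by 2.84 ± 0.14 in Th1 cells (7.14-fold, limma adjusted p = 2.59e-06) against naive cells. Itga3, another laminin receptor chain, averaged -1.76 ± 0.12 in Th17, -4.44 ± 0.40 in Th1 and -3.29 ± 0.17 in naive cells (SD, n = 3 each). It was higher in Th17 (1.52, limma adjusted p = 0.000311) and lower in Th1 cells (-1.15, limma adjusted p = 0.00142) than in naive cells, and 6.38-fold higher in Th17 than in Th1 cells (limma adjusted p = 7.86e-05). Itga3 was above background on all Th17 and naive arrays but on 2 Th1 arrays only, so changes that involve Th1 cells rest on a level near background. Itga5, the fibronectin receptor chain, was above background on all Th17 and naive arrays and on no Th1 array. In Th1 cells it was at least 1.39-fold lower than in naive cells (limma adjusted p = 0.00329). In Th17 cells it was at least 1.26-fold higher than in Th1 cells (limma adjusted p = 0.0193) and not called against naive cells (-0.14, limma adjusted p = 0.686). Itgam, the alpha M chain, was 0.78 higher in Th17 (adjusted p = 0.00504) and 1.06 higher in Th1 cells (adjusted p = 0.0011) on its brightest probe, each against naive cells. A second probe gave 0.50 (adjusted p = 0.0527) and 0.60 (adjusted p = 0.0274), and another gave -0.11 (adjusted p = 0.611) and -0.45 (adjusted p = 0.0607), so 2 of the 3 probes pointed up and 1 down. The probes stood at very unlike levels. In Th17, Th1 and naive cells the brightest averaged 4.53, 4.80 and 3.74, the second -3.34, -3.25 and -3.85 and the other -3.25, -3.58 and -3.14. Which of them measures the transcript was not tested. Of the other 5 myeloid markers with a probe, S100a9 was above background on 2 Th17, 2 Th1 and 0 naive arrays. In the same order S100a8 was above it on 1, 1 and 0, Lyz2 on 2, 0 and 0, and Adgre1 on 3, 2 and 3. Adgre1 lay at -4.95 to -4.58 in Th17, -5.14 to -4.75 in Th1 and -4.68 to -4.17 in naive cells. S100a9 reached -0.58 in Th17 and -0.67 in Th1 cells, against at most -5.91 in naive cells, while Csf1r was lower in Th17 (1.33 to 1.53) and Th1 (1.28 to 1.81) than in naive cells (2.18 to 2.29). The part of these markers in the Itgam values was not tested.

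**Figure D4:**
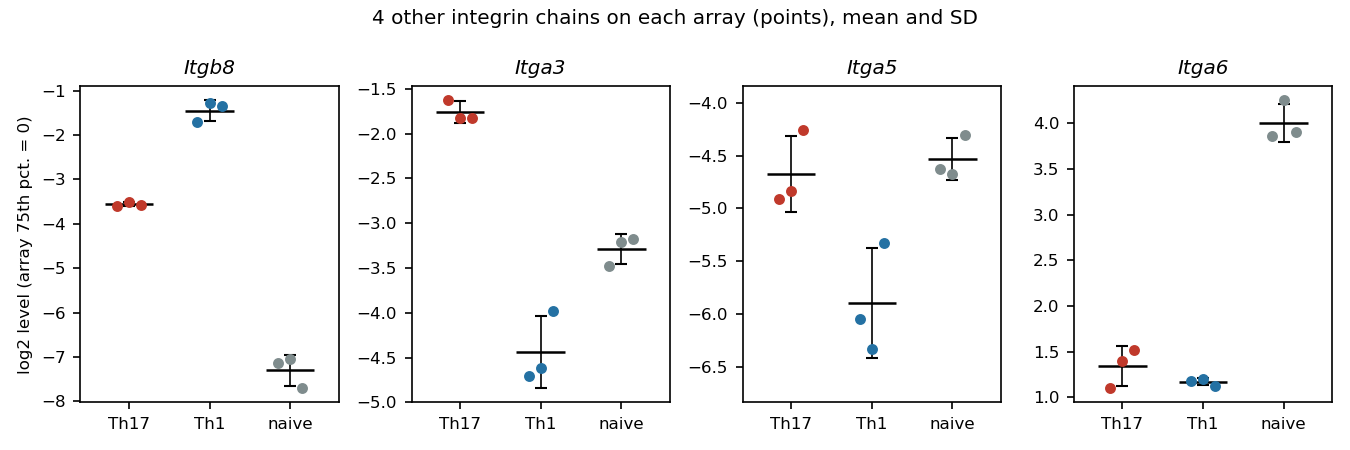
Log2 level (array 75th percentile set to 0) of Itgb8, Itga3, Itga5 and Itga6 on each array, with Th17, Th1 and naive cells from left to right; points are arrays, long bars means and error bars SD (n = 3). Itgb8 is highest in Th1, Itga3 in Th17 and Itga6 in naive cells, and the 3 populations do not overlap for Itgb8 and Itga3.

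Of 33 genes that activate integrins or tie them to actin, 30 were tested. Against naive cells 5 rose and 10 fell in Th17 cells (median -0.21), a called share of 50% beside 54.4% of all genes, of which more fell than rose too. In Th1 cells 8 rose and 13 fell (median -0.38), or 70.0% beside 54.1%. Between Th17 and Th1 cells 5 were higher and 3 lower (median 0.00), or 26.7% beside 15.8%. Actn1, an actinin that links integrins to actin, fell by 3.78 ± 0.13 in Th17 and by 3.54 ± 0.13 in Th1 cells. Pxn, the focal adhesion adaptor paxillin, fell by 1.58 and 1.29, and Actn4, another actinin, fell by 0.54 and 0.89 in the same order. Rasgrp2, the exchange factor that loads the integrin activator Rap1 with GTP, fell by 3.37 ± 0.27 in Th17 and by 3.49 ± 0.27 in Th1 cells, and Sipa1, which turns Rap1 off, fell by 1.61 ± 0.11 and 1.05 ± 0.11. Zyx, the adhesion protein zyxin, rose by 2.18 ± 0.15 in Th17 and by 0.92 ± 0.15 in Th1 cells against naive cells and was 1.25 higher in Th17 than in Th1 cells. Rap1b was 0.81 higher in Th17 than in Th1 cells, while Fyb, an adaptor of inside-out signalling, was at -1.98 and Lims1, the integrin-linked kinase partner PINCH1, at -0.99. The limma adjusted p of these named changes was at most 0.00581.

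Of 25 integrin ligands and membrane partners 21 were tested, with 7 up and 7 down in Th17 cells (median -0.04) and 6 up and 6 down in Th1 cells (median 0.01) against naive cells. These are 66.7% of the list beside 54.4% of all genes in Th17 cells, and 57.1% beside 54.1%, near the background, in Th1 cells. Th17 and Th1 cells differed in 4 higher and 4 lower genes (median 0.10), or 38.1% beside 15.8%. Vcam1, the ligand of alpha 4 beta 1, averaged -0.15 ± 0.42 in Th17, 1.47 ± 0.18 in Th1 and -6.98 ± 0.39 in naive cells (SD, n = 3 each), above background on no naive array. It was at least 29.9-fold higher in Th17 (limma adjusted p = 7.37e-07) and at least 92.2-fold higher in Th1 than in naive cells (limma adjusted p = 2.25e-07). Icam1, the ligand of LFA-1, fell by 3.28 ± 0.21 in Th17 and by 2.94 ± 0.21 in Th1 cells, opposite to Itgal and Itgb2. The laminin chain Lamc1 rose by 7.13 ± 0.13 in Th17 and by 4.05 ± 0.13 in Th1 cells and was 3.07 higher in Th17 than in Th1 cells, whereas Lamb1 was above background on all Th1 and no Th17 or naive array, at least 5.44-fold lower in Th17 than in Th1 cells. Fn1, fibronectin, was at least 7.09-fold higher in Th17 (limma adjusted p = 1.87e-05) and at least 2.23-fold higher in Th1 cells (limma adjusted p = 0.00017) than in naive cells. The tetraspanins Cd81 and Cd9, which sit beside integrins in the membrane, were at -1.53 and -0.63 in Th17 against Th1 cells. The limma adjusted p of these named ligand and partner changes was at most 0.00389.

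Of 20 homing genes with a probe 19 were tested. Against naive cells 9 rose and 8 fell in each effector population. That is 89.5% beside 54.4% of all genes in Th17 and 54.1% in Th1 cells. The median was 0.55 in Th17 and -0.24 in Th1 cells, and between Th17 and Th1 cells 6 were higher and 3 lower, or 47.4% beside 15.8%. The chemokine receptors Cxcr3 and Cxcr6 rose by 5.94 and 8.04 in Th17 and by 7.02 and 5.80 in Th1 cells, and Ccr6 was 4.81 higher in Th17 than in Th1 cells. Fut7, which builds selectin ligands, was 4.46 ± 0.27 higher in Th17 than in Th1 cells (limma adjusted p = 2.84e-05), and Jaml, a junctional adhesion molecule, was 2.31 higher. Cd69, which is induced within hours of stimulation, fell by 2.07 in Th17 and by 2.46 in Th1 cells against naive cells. The limma adjusted p of the homing changes given was at most 0.000543.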

How the data were processed

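RNA of 9 sorted samples, 0.5 µg each, was labelled with Cy3 and hybridised to 1-colour Agilent arrays of design 026655. RNA came from either of 2 extraction kits per the labels, which do not say which sample had which. The deposited files hold each spot's processed signal as an intensity, background-subtracted and detrended by Agilent Feature Extraction (version 10.7.3.1 per the file headers, 10.5 per the submitters' processing notes) with no scaling between arrays. The authors also deposited a value table in log2 units, which once centred per probe lay within 0.01 of the levels used here for 100% of values; its direction is that of level, the constant per probe is unknown, and its column medians ran from -0.0959 to 0.285. The header's build is mm9 and the reference at hand GRCm38.p6, so positions are given for promoter sequences only.

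Controls and outlier spots were left out, spots of a probe averaged, and log2 signals shifted to the array's 75th percentile. Symbols came through RefSeq accessions for 27234 of 39429 probes. Probes with a value on every array and well above background on at least 3 (23207) were kept, and the brightest stood for its gene (19063 genes, 13072 with a symbol). One limma 3.58.1 model (R 4.3.3) held all 3 groups and was contrasted, with two-sided tests and Benjamini-Hochberg adjustment. The fit was tested on simulated data. Tables and figures used Python 3.11.15 with numpy 2.4.6, pandas 2.3.3 and matplotlib 3.10.9. Genes in the other lists were named by rule, up to 4 of those called in each comparison by smallest p; 28 genes were so named, and of the 7 with other kept probes none had an opposite call. 1 of the named genes is not reported here. The members and lists were chosen with earlier results of these data known. Where no array of a group was above background, a fold is a lower bound, the mean of the brighter group against the higher of each dim array's own signal and its lowest signal among probes above background. Slide came from the array barcodes. The labels give no shared animal for equal replicate numbers, and the samples were taken as unpaired.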

Additional observations from a re-analysis of the deposited data

Results flagged for a closer look

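The changes of 3 chains against naive cells differed between Th17 and Th1 cells by the limma contrast of the populations themselves. Itga4 differed by -1.71 (adjusted p = 0.00174), with all 3 Th17 arrays below and all 3 Th1 arrays above the naive arrays on the brighter probe. Its rise in Th1 against naive cells was not called, and on the dimmer probe those populations overlapped. Itgb1 differed by -0.60 (adjusted p = 0.0157), with both populations above naive cells. Itgb3 differed by 1.49 (adjusted p = 0.0143), with both populations below naive cells on the brighter probe. Its fall in Th17 against naive cells was not called on the dimmer probe (-0.08, adjusted p = 0.782) or with slide as a block (-0.31, adjusted p = 0.538). The brighter Itga1 probe, left out as dim, reached -2.00 on Th17 replicate 3, where the naive arrays lay at or below -5.14.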

How the results depend on the processing

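Without any 1 array in turn, the number of chains called was 7 to 8 in Th17 against naive, 6 to 7 in Th1 against naive and 1 to 4 in Th17 against Th1 cells. Over the planned and added alternatives 445 of 502 changes of a chain kept direction and side of the threshold. Not all of these could change direction. Leaving out an array of the population not compared, fitting the compared arrays alone and the replicate block cannot alter the change itself. The authors' values are nearly the same data, so the count overstates how far the changes were tried. The planned normexp correction left 1 chain called in Th17 against naive cells, 1 in Th1 against naive cells and 0 between Th17 and Th1 cells, with 1221, 1258 and 179 genes called in place of 10375, 10313 and 3014; its fitted background mean was -2092.51 on Th1 replicate 2, where the lowest net signal of a spot was -168448.5, and -40.02 to -5.25 elsewhere. Under it Itga4 in Th1 against naive cells was at -0.03, and Itgav and Itgb2 in Th17 against Th1 cells at 0.53 and 0.44. With spots of outlying local background left out on every array, a choice made after seeing the data, Itgav and Itga4 had no value. Of the 6 chains with a value 5 were called in Th17 against naive cells. Itga2 was at 0.34 and 0.21 in Th17 and Th1 against naive cells, neither called. Changes of sign were otherwise seen in uncalled Th17 against Th1 values, Itga2 at 0.13 in that fit, Itga2 at 0.32 and Itgb2 at 0.07 with slide as a block and within slide 2, and, without 1 array at a time, Itgav at 0.02, 0.05 and 0.12 without Th1 replicate 2, Th1 replicate 3 or Th17 replicate 1 (range -0.21 to 0.12) and Itgb2 at 0.02 without Th17 replicate 3 (range -0.19 to 0.02). Slide as a block left 5257 genes called in Th17 against naive cells, slide 1 alone 6626 in Th1 against naive cells, slide 2 alone 1415 in Th17 against Th1 cells and leaving out Th1 replicate 2 left 1930 there. With the percentile taken over probes that were expressed on every array, the all-gene median in Th1 against naive cells moved to 0.055 from -0.10 and the share of calls that were higher to 55.2% from 43.0%; Itga4 was then called in Th1 cells (0.64, adjusted p = 0.0476) and Itgb3 was not in Th17 cells (-0.78, adjusted p = 0.0641). With a replicate block 8, 7 and 4 chains were called in Th17 against naive, Th1 against naive and Th17 against Th1 cells, Itgb7 being the added chain (0.51, adjusted p = 0.0145, and 1.29, adjusted p = 0.00169); residuals correlated at -0.007 to 0.175 between arrays of the same number and -0.197 to 0.065 otherwise. The highest were between Th17 and Th1 arrays, a hint of pairing in the data, but not every same-numbered pair passed 0.1 and the labels give no shared source, so the samples were kept unpaired. The causes of these shifts were not tested, and no fit left out the named spot alone. Signals near background limit Itga1 and Itga2.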
